A study of Gallus gallus with 3 samples.

Results

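The genes of the mitochondrial respiratory chain were described in chicken DT40-ASF B cells with and without an SRSF1-3 knock-in. They were chosen by name from the sheet of read counts, as rows whose symbols begin with NDUF, UQCR, SDHA to SDHD, COX4 to COX8 or ATP5, together with the protein-coding genes of the mitochondrial genome. This gave 73 genes of the 11877 counted, 60 encoded in the nucleus and 13 in the mitochondrial genome. RNA of 3 libraries was measured. The first was knock-in clone 41, the second knock-in clone 47, both labelled SRSF1-3 knock in, and the third the untransfected DT40-ASF control, labelled control. DT40 is a B cell line from a chicken bursal lymphoma. By general knowledge, since the labels do not say it, DT40-ASF cells lack a working chicken SRSF1 gene and are kept alive by a human copy (ASF), a background that all 3 libraries then share. All cells are described as reconstituted and were grown in the same medium. Each knock-in library was 1 clone, so clonal history and transfection cannot be told apart from the knock-in, and nothing in the labels says that a culture was repeated.

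The respiratory chain passes electrons from NADH and succinate to oxygen through complexes I to IV of the inner mitochondrial membrane and pumps protons as it does so. Complex V, the ATP synthase, uses the proton gradient to make ATP. Complex II is encoded wholly in the nucleus, while the other complexes combine nuclear subunits with subunits made inside the mitochondrion, so their assembly needs the products of both genomes. In vertebrates the mitochondrial genes are transcribed as long polycistronic RNAs that are cut into single messenger RNAs.

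Depth was alike in the 3 libraries, with total counts between 41760372 and 44868987. All 73 genes passed the filter on low counts, and the lowest mean count among them was 254. CPM here are read counts scaled to library size, with TMM scaling between libraries. Of the 10 B cell markers listed, 10 were detected, with summed levels of 700, 549 and 797 CPM in clone 41, clone 47 and the control. They were not steady: PAX5 had 1524, 1669 and 1648 counts in the same order, but IRF4 had 1752, 671 and 2649 and BTK 5665, 3409 and 8399, and 4 of the 10 were at least 2-fold below the control in clone 47. The 6 T cell markers summed to 17.7, 30.4 and 34.5 CPM. Of these CD4 had 0, 0 and 1 counts, while CD8A had 359, 920 and 1011, CD3D 296, 232 and 268, CD28 45, 28 and 225, LCK 5, 113 and 12, and CD3E 10, 33 and 38. The 5 myeloid markers summed to 95.2, 123 and 94.2 CPM, nearly all from MPEG1, with 1435, 230 and 1627 counts, and CEBPB, with 2415, 5140 and 2620, which lay on opposite sides of the control in clone 47. The other 3, CSF1R, CSF3R and MARCO, had at most 2 counts in any library. The 3 fibroblast markers counted summed to 29.5, 15.8 and 20.1 CPM, nearly all from COL1A2, with 1181, 673 and 893 counts, while COL3A1 had 1, 0 and 0. Their part in the results below was not tested.

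The 13 genes of the mitochondrial genome took a larger share of all counts in both clones than in the control. Their share was 4.05% in clone 41 (exact Clopper-Pearson 95% interval 4.05 to 4.06) and 4.42% in clone 47 (4.42 to 4.43), against 3.33% in the control (3.32 to 3.33). The 60 nuclear genes took 0.833% in clone 41 (0.830 to 0.836) and 0.925% in clone 47 (0.922 to 0.928), against 0.792% in the control (0.789 to 0.794). Over the clones the mean share was 4.24% ± 0.26 for the mitochondrial genome and 0.879% ± 0.065 for the nuclear genes (SD, n = 2). The mean of the clones differed from the control by 0.91 percentage points for the mitochondrial genome and by 0.087 for the nuclear genes. The SD of 2 clones does not give the spread of the lone control. For the mitochondrial share clone 41 lay nearer to clone 47 than to the control. For the nuclear share it lay nearer to the control (0.833% against 0.792%) than to clone 47 (0.925%). An exact permutation test over 3 libraries gave a one-sided p = 0.33 for either share, which is the smallest p this design allows. The intervals above describe counting error within 1 library alone. Copies made by PCR are not separate molecules, so the intervals can be too narrow even for that.

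**Figure D1:**
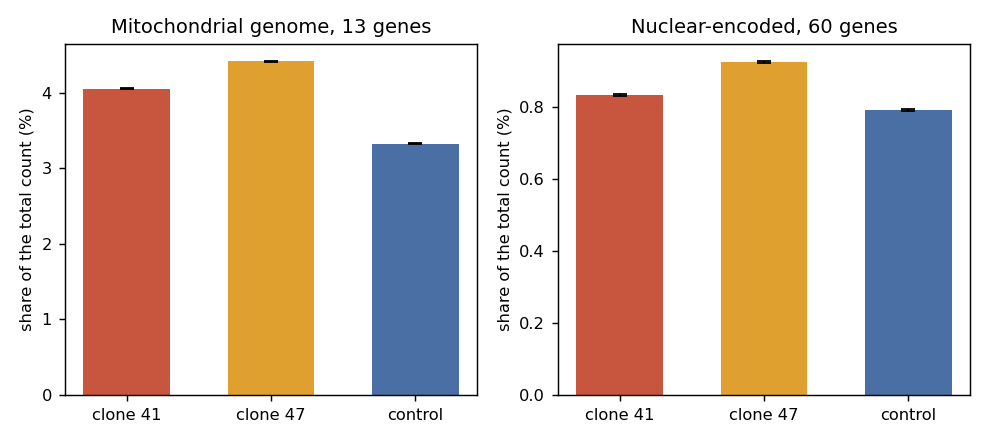
Share of each library's total count (%, bars from 0) held by the 13 mitochondrial-genome genes (left) and the 60 nuclear-encoded genes (right); black caps are exact 95% intervals of counting error. The clones stand at 4.05% and 4.42% on the left against 3.33% in the control, and at 0.833% and 0.925% on the right against 0.792%.

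For each nuclear count there were 4.87 mitochondrial-genome counts in clone 41 and 4.78 in clone 47, against 4.20 in the control. COX1 and ATP5B held the most counts on the mitochondrial and the nuclear side. Without them the ratios were 4.11 in clone 41 and 3.71 in clone 47, against 3.54 in the control. By counts the control was lowest in either form, and the gap of clone 47 to the control was smaller without this pair. By summed FPKM the ratio was 8.61 in clone 41 and 7.55 in clone 47, against 7.44 in the control, and without the pair 8.34 in clone 41 and 7.01 in clone 47, against 7.18 in the control. In these forms the place of clone 47 relative to the control thus depended on the measure and on this pair. The short gene ATP8 alone held 27641 of the summed mitochondrial FPKM of 67654 in clone 41. It held 21663 of 62040 in clone 47 and 21636 of 53827 in the control. How far this gene sets the FPKM ratios was not tested.

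No respiratory chain gene passed the test of knock-in against control. With edgeR's quasi-likelihood test and Benjamini-Hochberg adjustment, 0 of the 73 genes passed the adjusted threshold of 0.05, beside 0% of the 10203 genes tested. Without adjustment, 0 of the 73 and 81 of all genes had p under 0.05. DESeq2, limma-voom and the legacy edgeR estimator also called 0 of the 73, with 2, 1 and 2 calls over all genes. The lowest unadjusted p belonged to UQCRFS1, at 0.176 (edgeR adjusted p = 1). This fit has 1 residual degree of freedom and takes the lone control to vary like the clones, so the values below are given as levels and ratios of single libraries, without a test.

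By direction alone, 46 of the 73 genes (63.0%) were above the control in both clones, where 25.9% of all genes tested and 25.6% of the 8484 genes with a mean count of at least 100 were. By counts just 1 of the 73, ND2, was below the control in both, where the backgrounds were 25.9% and 25.4%. Clone by clone, 62 of the 73 were above the control in clone 41 (background 49.8%) and 56 in clone 47 (background 50.1%). Some of those above in clone 41 were nearly level, such as NDUFS6 at 1.00 times (interval 0.955 to 1.05) and COX6C at 1.01 times (interval 0.974 to 1.04). The sign by FPKM was that by counts for 63 of the 73 in clone 41 and 71 in clone 47. Except for ATP5G1, the genes that differed in clone 41 were above the control by counts and below it by FPKM. By FPKM NDUFA5, NDUFB3 and COX6C were, like ND2, below the control in both clones, NDUFB3 only barely so in clone 41. Counts of direction under other scalings are not given here. Both ratios share the 1 control library, so a low value in it would place a gene above in both clones. In bulk RNA, fewer cells of a kind and less RNA per cell cannot be told apart.

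Sizes were modest. In clone 41, 1 gene of the 73 was at least 1.5-fold above the control (6.91% of all genes, 3.83% of those with a mean count of at least 100) and 0 were at least 1.5-fold below (11% and 5.7%). In clone 47, 8 genes were at least 1.5-fold above (18.6% and 14.2%) and 4 at least 1.5-fold below (17.2% and 15%). None of the 73 was at least 1.5-fold above in both clones, where 3.09% of all genes and 1.18% of the higher-count genes were. At 2-fold, 0 genes were above or below in clone 41 (3.2% and 5.55% of all genes), while in clone 47 there were 0 above (9.42%) and 1 below (7.57%). The SD over the 73 genes of the log2 ratio to the control was 0.21 in clone 41 and 0.42 in clone 47. Over the 8484 higher-count genes it was 0.42 and 0.67 for the same clones. This background was not matched in level. The median FPKM of the 73 genes was 107 in clone 41, 115 in clone 47 and 112 in the control, against 14.5, 14.9 and 15.5 for the higher-count genes. The part of level in these contrasts was not tested.

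The 13 mitochondrial-genome genes had a median log2 ratio to the control of 0.39 in clone 41 and 0.27 in clone 47. The median over all genes tested was 0.00 in both. Of the 13, 12 were above the control in clone 41 (49.8% of all genes were) and 12 in clone 47 (50.1% were). COX1, the catalytic subunit of cytochrome c oxidase (complex IV), had the highest count of any gene in each library. COX1 stood at 11875 CPM in clone 41 and 14025 CPM in clone 47, against 9418 CPM in the control, which is 1.26 and 1.49 times the control. Its fellow subunits COX2, which carries the copper site that takes electrons from cytochrome c, and COX3 had ratios to the control of 1.31 and 1.16 in clone 41, and of 1.11 and 1.25 in clone 47. CYTB, the cytochrome b of complex III, was the only member at least 1.5-fold above the control in clone 41. Its level was 5335 CPM in clone 41 and 3805 CPM in clone 47, against 3326 CPM in the control, so clone 41 stood apart and clone 47 lay nearer to the control. These were ratios of 1.60 (interval 1.59 to 1.61) and 1.14 (interval 1.14 to 1.15).

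The 7 mitochondrial subunits of complex I, which form the proton-pumping membrane arm, were not alike. ND1 had 2113 CPM in clone 41 and 2710 CPM in clone 47, against 1829 CPM in the control, and was higher in clone 47. ND4L showed the reverse order of the clones, with 589 CPM in clone 41 and 522 CPM in clone 47, against 400 CPM in the control. For ND3, ND4 and ND5 the ratios were 1.41, 1.37 and 1.24 in clone 41, and 1.21, 1.27 and 1.25 in clone 47. ND2 was the exception in direction: it had 1034 CPM in clone 41 and 1101 CPM in clone 47, against 1142 CPM in the control, or 0.905 and 0.964 times. ND6, which in vertebrates is encoded on the strand opposite to the other 12, stood level with the control in clone 41, at 1.01 times (interval 0.976 to 1.04), and at 1.19 times (interval 1.15 to 1.22) in clone 47. With ATP6 and ATP8, the mitochondrial subunits of ATP synthase, the clones divided again: ATP6 had 3806 CPM in clone 41 and 3020 CPM in clone 47, against 2825 CPM in the control, and ATP8 had 1131 CPM in clone 41 and 878 CPM in clone 47, against 844 CPM in the control.

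Set in their order along the mitochondrial genome in RefSeq's table of genes (assembly GRCg7b), neighbours that lie side by side on 1 RNA were alike within a clone in some places and not in others. ATP8 and ATP6, whose reading frames overlap, had ratios of 1.34 and 1.35 in clone 41, and of 1.04 and 1.07 in clone 47. ND4L and ND4, which also overlap, had ratios of 1.47 and 1.37 in clone 41, and of 1.30 and 1.27 in clone 47. By contrast COX1 and the next protein-coding gene, COX2, were at 1.49 and 1.11 times in clone 47, and ND1 and the next, ND2, at 1.48 and 0.964 times. Between the clones, CYTB (1.40 times) and ATP8 (1.29 times) were furthest above clone 47 in clone 41, and ND1 (0.780 times) was furthest below. Reads from overlapping stretches can be counted for either gene. Copies of mitochondrial DNA in the nucleus can also take reads, and no source used here gives how the authors handled these.

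**Figure D2:**
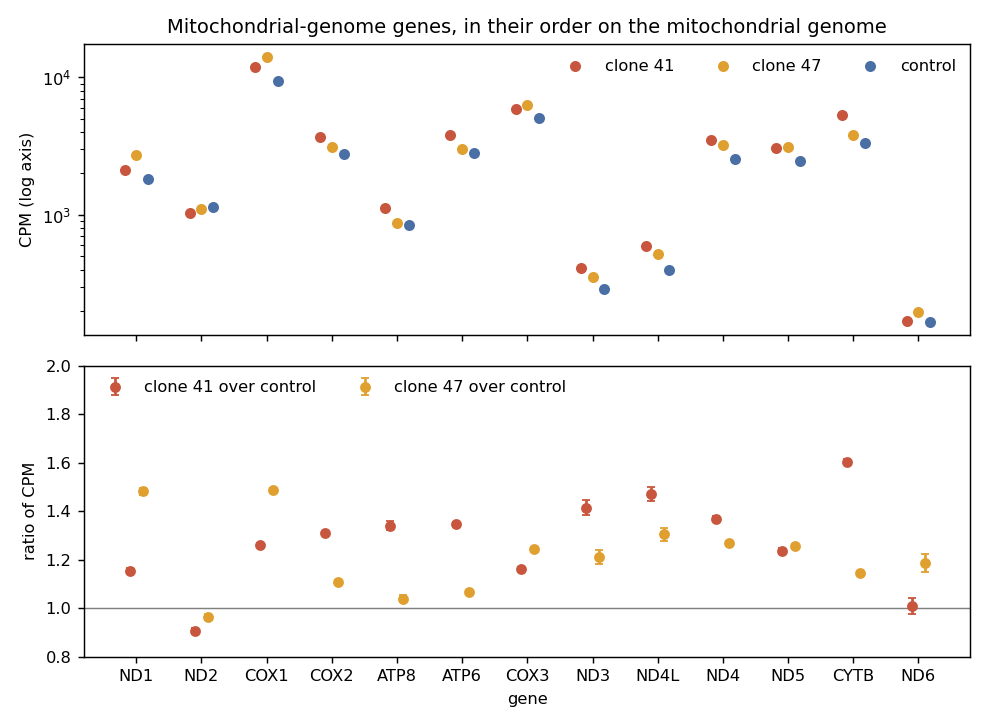
The 13 mitochondrial-genome genes in their order on the mitochondrial genome: CPM in each library on a log axis (top) and the ratio of each clone to the control with exact 95% counting intervals (bottom). In both clones 12 genes lie above 1 and ND2 below it; CYTB reaches 1.60 in clone 41, and ND1 and COX1 reach 1.48 and 1.49 in clone 47.

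The 60 nuclear genes had smaller medians than the mitochondrial ones, 0.13 in clone 41 and 0.22 in clone 47 on the log2 scale. Clone 41 was above the control for 50 of them (83.3%, where 49.8% of all genes were) and clone 47 for 44 (73.3%, where 50.1% were). Both clones were above it for 34 (56.7%, where 25.9% of all genes were). By complex, mitochondrial subunits included, the medians in clone 41 lay between 0.12 for complex II and 0.22 for complex IV. In clone 47 they were 0.28 for complex I, 0.51 for complex II, 0.19 for complex III, 0.15 for complex IV and 0.06 for complex V. Over nuclear subunits alone, the medians of complexes I to V were 0.13, 0.12, 0.18, 0.06 and 0.11 in clone 41, and 0.23, 0.51, 0.17, 0.14 and 0.05 in clone 47, so complex IV was the lowest in clone 41 when its mitochondrial subunits were left out. Complex II was near the others in clone 41 and above the medians of the other complexes in clone 47. It has only 3 genes here, and the difference between complexes was not tested, since the genes of a complex share their library.

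**Figure D3:**
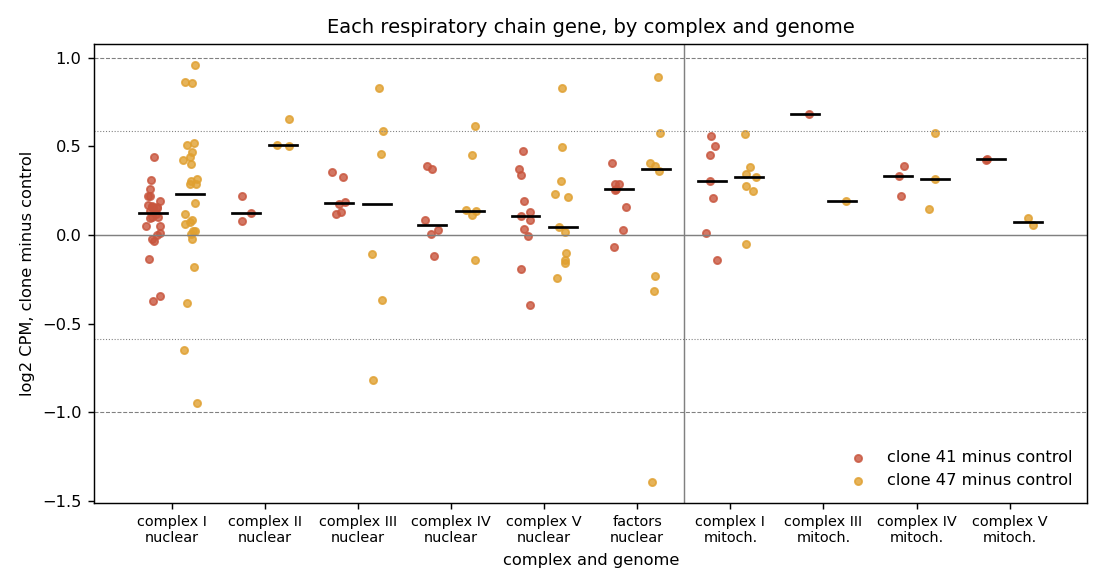
Each gene's log2 CPM in a clone minus that in the control (vertical axis), by complex and genome, clone 41 left and clone 47 right in each pair; black bars are medians, and dotted and dashed lines mark 1.5-fold and 2-fold. The nuclear genes of clone 41 lie in a narrow band (SD 0.18) and those of clone 47 in a wider one (SD 0.45). Complex II lies wholly above 0 in both clones, as do the mitochondrial genes of complexes III, IV and V.

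Complex I, the NADH dehydrogenase, had 26 nuclear subunit genes here. The 7 core subunits, which carry the flavin, the iron-sulfur clusters and the ubiquinone site, had a median log2 ratio of 0.15 (clone 41) and 0.02 (clone 47). The 19 accessory subunits had a median log2 ratio of 0.12 (clone 41) and 0.31 (clone 47). By counts, all 7 core genes were above the control in clone 41 (49.8% of all genes were). In clone 47, 4 of the 7 were (57.1%), near the 50.1% of all genes. The clone 41 figure includes NDUFV2 at 1.01 times (interval 0.973 to 1.05) and NDUFV1 at 1.04 times the control. By FPKM these genes were at 0.968 and 0.996 times in clone 41. NDUFV1, which binds NADH and the flavin, was nearly level, with 158 CPM in clone 41 and 155 CPM in clone 47, against 152 CPM in the control. NDUFS3 was the lowest core gene in clone 47, with 69.7 CPM in clone 41 and 47.6 CPM in clone 47, against 62.1 CPM in the control.

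The accessory subunits furthest from the control were so in clone 47. NDUFS4, which lies at the NADH-oxidising end of the matrix arm and is needed for its stable assembly in mammals, had 57.7 CPM in clone 41 and 123 CPM in clone 47, against 63.3 CPM in the control. Clone 47 alone stood high, at 1.94 times the control (interval 1.86 to 2.04), while clone 41 was at 0.912 times (interval 0.863 to 0.963). The fit over both clones put it at 0.51 on the log2 scale, with an SE of 0.49 (edgeR, adjusted p = 1). NDUFA12, a subunit of the same arm, had 66.8 CPM in clone 41 and 108 CPM in clone 47, against 59.3 CPM in the control. NDUFC2, a membrane arm subunit, had 52.4 CPM in clone 41 and 81.5 CPM in clone 47, against 44.9 CPM in the control. Both genes were above the control in each clone and at 1.82 and 1.81 times in clone 47. The lowest genes in clone 47, NDUFB3 and NDUFB9, encode membrane arm subunits too. NDUFB3 had 65.4 CPM in clone 41 and 32.7 CPM in clone 47, against 63.2 CPM in the control, or 1.04 times (interval 0.982 to 1.09) and 0.518 times (interval 0.485 to 0.552). NDUFB9 had 383 CPM in clone 41 and 219 CPM in clone 47, against 343 CPM in the control, or 1.12 and 0.639 times. Clone 41 and the control were close for both genes, and clone 47 stood low. NDUFB5, another membrane arm subunit, was the nuclear complex I gene furthest above the control in clone 41. It was alike in the clones, with 123 CPM in clone 41 and 120 CPM in clone 47, against 90.9 CPM in the control.

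Lowest of complex I in clone 41 was NDUFA1, with 13.1 CPM in clone 41 and 20.9 CPM in clone 47, against 17.0 CPM in the control. The control lay between the clones, as it did for NDUFA2 (0.787 and 1.24 times in clone 41 and clone 47). NDUFA4, named for complex I and since assigned to complex IV in mammals, is counted here by its name, among the accessory subunits of complex I. It was at 1.20 times the control in clone 41, and level with the control in clone 47 (1.01 times, interval 0.979 to 1.03). The other 15 nuclear subunits of complex I lay between 0.976 and 1.24 times the control in clone 41 and between 0.883 and 1.43 times in clone 47.

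Complex II, succinate dehydrogenase, links the citric acid cycle to the chain. SDHA, the flavoprotein, had 515 CPM in clone 41 and 694 CPM in clone 47, against 488 CPM in the control. SDHB, the iron-sulfur protein, had 39.5 CPM in clone 41 and 57.1 CPM in clone 47, against 36.2 CPM in the control. SDHC, a membrane anchor, had 137 CPM in clone 41 and 167 CPM in clone 47, against 118 CPM in the control. The order was the same for all 3 genes, with clone 47 highest and the control lowest. Clone 47 was at 1.42, 1.58 and 1.42 times the control for SDHA, SDHB and SDHC, and clone 41 at 1.06, 1.09 and 1.16 times. The fitted log2 fold changes were 0.31, 0.41 and 0.37 with SE of 0.49, 0.51 and 0.43 (edgeR adjusted p = 1 for each). The anchor gene SDHD was not analysed here.

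Complex III, which passes electrons from ubiquinol to cytochrome c, had 6 nuclear genes. All were above the control in clone 41 (49.8% of all genes were). In clone 47, 3 of 6 were above it, near the 50.1% of all genes. UQCRFS1 encodes the Rieske iron-sulfur protein, a catalytic subunit. It had 214 CPM in clone 41 and 297 CPM in clone 47, against 167 CPM in the control, and both clones were above the control, at 1.28 (interval 1.24 to 1.32) and 1.78 times (interval 1.73 to 1.83). Fitted over both clones, its log2 fold change was 0.61 with an SE of 0.44 (edgeR, adjusted p = 1), the largest of the nuclear subunits. UQCRC1, a large core protein of the matrix side, was lower than the control in clone 47. It had 454 CPM in clone 41 and 228 CPM in clone 47, against 402 CPM in the control, or 1.13 and 0.567 times the control. Its partner UQCRC2 differed less, at 1.09 (clone 41) and 0.927 times the control (clone 47). Of the small subunits, UQCRH was at 1.37 times the control and UQCR10 at 0.776 times in clone 47. UQCRQ, with 27.4 CPM in clone 41 and 32.7 CPM in clone 47, against 21.8 CPM in the control, was at the 1.5-fold mark in clone 47 by the ratio of CPM, and just under it (0.58 on the log2 scale) with the prior count that the fold counts use. In clone 41 these 3 lay between 1.10 and 1.26 times.

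Complex IV, the oxidase, had 6 nuclear genes. COX4I1, the ubiquitous form of subunit 4 in mammals, was alike in the clones, with 374 CPM in clone 41 and 390 CPM in clone 47, against 285 CPM in the control, or 1.31 and 1.37 times. COX5A was at 1.29 (clone 41) and 1.10 times the control (clone 47). COX6A1 was level with the control in clone 41 and higher in clone 47, with 120 CPM in clone 41 and 179 CPM in clone 47, against 117 CPM in the control. COX6C, COX7A2 and COX7C stayed between 0.909 and 1.10 times in either clone. A further gene, COX7A2L, had no row of counts. Its FPKM (fragments per length of transcript and depth of library, as deposited) was 16.8 in clone 41 and 9.21 in clone 47, against 14.9 in the control.

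Complex V had 11 nuclear genes, of which 8 were above the control in clone 41 (72.7%), 7 in clone 47 (63.6%) and 4 in both (36.4%). The shares of all genes were 49.8%, 50.1% and 25.9%. The catalytic head held the subunit gene on which the clones differed most. ATP5C1, the gamma subunit that forms the turning stalk, had 131 CPM in clone 41 and 304 CPM in clone 47, against 171 CPM in the control. The clones lay on either side of the control, at 0.762 (interval 0.736 to 0.789) and 1.77 times (interval 1.72 to 1.82). The alpha and beta subunits of the same head stayed near the control: ATP5A1 was at 1.06 (clone 41) and 1.18 times the control (clone 47), and ATP5B at 1.08 and 1.03 times. ATP5D, the delta subunit, was at 1.30 (clone 41) and 0.845 times the control (clone 47). ATP5H, a peripheral stalk subunit, was level with the control in clone 41 (0.995 times) and at 1.41 times in clone 47.

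The ring of c subunits is encoded by 3 genes that give the same mature protein in mammals. ATP5G3 was the highest per length, with an FPKM of 471 in clone 41 and 320 in clone 47, against 352 in the control. ATP5G1 had an FPKM of 64.6 in clone 41 and 97.2 in clone 47, against 61.4 in the control, and ATP5G2 lay between 68.7 and 71.6 in all 3 libraries. Summed over the 3 genes the FPKM was 604 in clone 41 and 488 in clone 47, against 482 in the control. ATP5G3 gave 77.9% of this sum in clone 41 and 65.5% in clone 47, against 73.0% in the control. By counts ATP5G1 was at 0.874 times the control in clone 41, while by FPKM it was at 1.05 times, so its direction in that clone depended on the deposited measure.

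The symbol prefixes also took 8 genes that are not subunits, 6 complex I assembly factors of the NDUFAF group, SDHAF3 of complex II and ATP5S, known as coupling factor B. Their median log2 ratio was 0.26 in clone 41 and 0.37 in clone 47. NDUFAF7, a methyltransferase that acts in complex I assembly in human cells, had 52.0 CPM in clone 41 and 78.9 CPM in clone 47, against 42.5 CPM in the control, or 1.22 and 1.86 times. NDUFAF1, which acts early in complex I assembly, was at 1.20 and 1.49 times. ATP5S was the only one of the 73 genes at least 2-fold from the control. It had 306 counts in clone 41 and 122 in clone 47, against 334 in the control, or 1.02 times (interval 0.872 to 1.20) and 0.378 times (interval 0.304 to 0.466). NDUFAF5 and NDUFAF6 were above the control in clone 41, at 1.12 and 1.19 times, and below it in clone 47, at 0.802 and 0.853 times.

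The knock-in libraries were also set against each other, clone 41 over clone 47, with no replicate of either. Of the 73 genes, 32 were higher in clone 41 (background 48.3%). At 1.5-fold or more, 6 were higher in clone 41 (18.8% of all genes, 17.4% of the higher-count genes) and 7 lower (22.2% and 17.2%), and all 13 were nuclear-encoded. At 2-fold on the log2 scale, 1 was higher (8.67% of all genes) and 2 were lower (12.2%). Higher in clone 41 were ATP5S at 2.70 times clone 47, NDUFB3 at 2.00, UQCRC1 at 1.99, NDUFB9 at 1.75, and ATP5D and ATP5G3 at 1.53 each. Lower in clone 41 were ATP5C1 at 0.430 times clone 47, NDUFS4 at 0.469, NDUFA12 at 0.620, NDUFA1 at 0.625, NDUFA2 at 0.633, NDUFC2 at 0.643 and NDUFAF7 at 0.659. The mitochondrial-genome genes lay between 0.780 and 1.40 times.

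**Figure D4:**
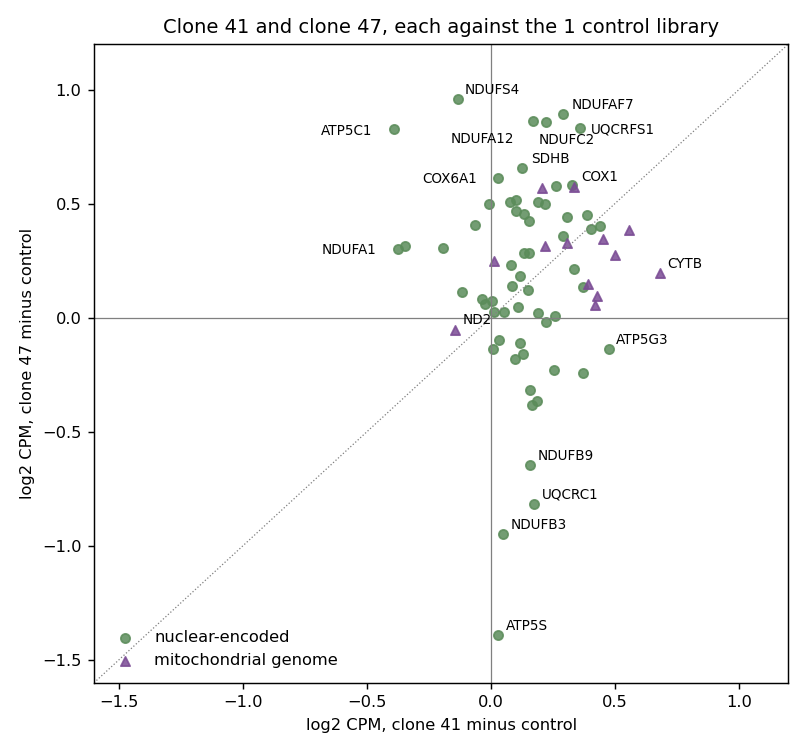
Each of the 73 genes by its log2 CPM in clone 41 minus control (horizontal) and in clone 47 minus control (vertical); triangles are mitochondrial-genome genes, circles nuclear-encoded ones, and the dotted line marks equal values. The points spread more along the vertical axis, from -1.39 for ATP5S to 0.96 for NDUFS4, than along the horizontal one, from -0.39 for ATP5C1 to 0.68 for CYTB; both axes share the 1 control library.

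Levels can be set against each other between genes only per length, so the deposited FPKM were used for this. The median FPKM of the 13 mitochondrial-genome genes was 2674 in clone 41 and 2667 in clone 47, against 1810 in the control. The median fell on ND4L in clone 41 and the control and on ND1 in clone 47, so these levels give no gene-by-gene ratio. Gene by gene, the median log2 ratio to the control by FPKM (pseudocount 1) was 0.34 in clone 41 and 0.32 in clone 47. The median FPKM of the 52 nuclear subunit genes was 98.2 in clone 41 and 107 in clone 47, against 99.3 in the control. The lowest mitochondrial gene was ND6, with 433 in clone 41 and 537 in clone 47, against 452 in the control. The highest nuclear gene was COX4I1 in the clones, at 532 and 583 in clone 41 and clone 47, and ATP5B in the control, at 482. ATP8 had the highest FPKM of all, with 27641 in clone 41 and 21663 in clone 47, against 21636 in the control, although its count was below that of its neighbour ATP6. It is a short gene, and how far the authors' length correction sets this value was not tested.

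Within a complex the nuclear subunits, which are present in fixed numbers in the assembled enzyme, differed widely in deposited FPKM. In complex I the highest over the lowest FPKM was 15.3 in clone 41 and 10.5 in clone 47, against 12.2 in the control. The 7 core genes lay closer, at 2.64 in clone 41 and 2.40 in clone 47, against 2.65 in the control. In complex II the FPKM of SDHC was 9.92 times that of SDHB in clone 41 and 8.60 times in clone 47, against 9.71 times in the control. Without correction for length the gap was smaller, with 137 CPM for SDHC and 39.5 CPM for SDHB in clone 41. How far the authors' length correction sets these gaps between genes was not tested. The assembly and coupling factors were lowest, with a median FPKM of 17.7 in clone 41 and 20.7 in clone 47, against 16.2 in the control.

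**Figure D5:**
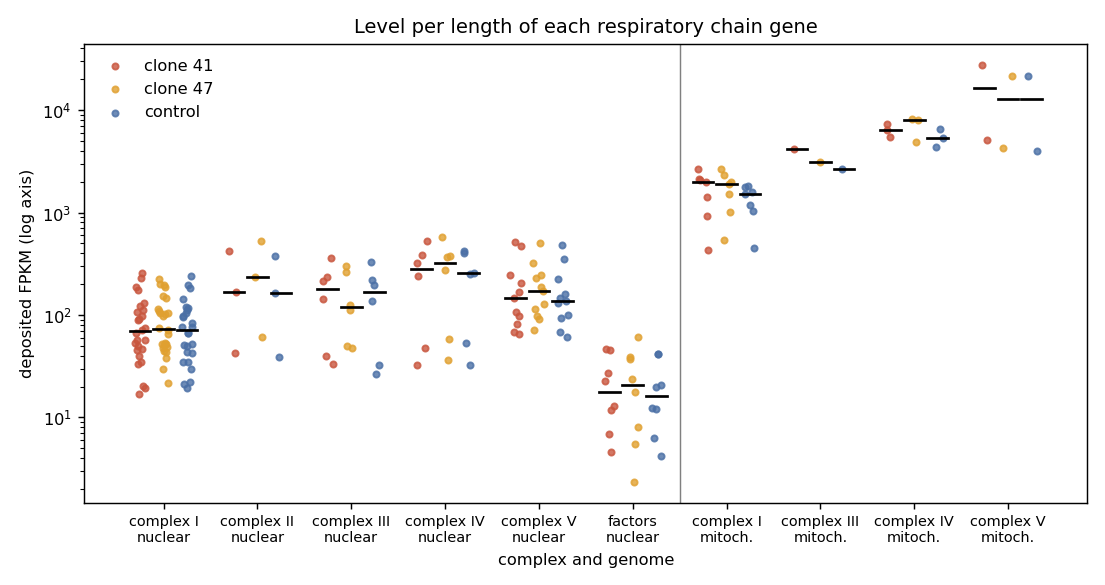
Deposited FPKM (log axis) of each gene by complex and genome in clone 41, clone 47 and the control, with black bars at the medians. The mitochondrial-genome genes lie above nearly all nuclear ones in each library (median 2674, 2667 and 1810 against 98.2, 107 and 99.3 for nuclear subunits), and the factors lie lowest.

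Other genes of the pathway were taken from lists, and 0 members of these passed edgeR's quasi-likelihood test, beside 0% of all genes tested. Over all genes tested, 25.9% were above the control in both clones and 25.9% below it in both. The first list also named the electron carrier genes CYC1 and CYCS, but neither was matched to a row of counts. Its 25 matched genes, assembly factors and related genes, had median log2 ratios of 0.19 (clone 41) and 0.04 (clone 47). Of these, 10 were above the control in both clones (40%) and 2 below in both (8%). ACAD9, an assembly factor of complex I, was at 1.33 and 1.32 times in clone 41 and clone 47. CMC2, linked to complex IV assembly, was at 1.21 and 1.71 times. The 11 genes of coenzyme Q synthesis and handling, the mobile carrier that feeds complex III, had median log2 ratios of 0.23 and 0.39. Of these, 6 were above in both clones (54.5%) and 0 below in both. COQ9 had 3212 counts in clone 41 and 3963 in clone 47, against 2159 in the control, or 1.66 and 1.90 times. COQ5, a methyltransferase of the same pathway, was at 1.20 and 1.60 times.

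The 18 genes of the citric acid cycle and pyruvate dehydrogenase had median log2 ratios of 0.14 (clone 41) and 0.13 (clone 47). Of these, 8 were above the control in both clones (44.4%) and 3 below in both (16.7%), beside 25.9% of all genes either way. SUCLG1, a subunit of succinyl-CoA ligase, was at 0.743 (clone 41) and 0.620 times the control (clone 47). The 25 genes that maintain, transcribe and process mitochondrial DNA and RNA had median log2 ratios of 0.15 and -0.14. Of these, 4 were above in both clones (16%) and 5 below in both (20%), each under the 25.9% of all genes. DGUOK, which supplies nucleotides for mitochondrial DNA, was at 0.793 and 0.729 times, and PNPT1, a mitochondrial RNA-degrading enzyme, at 0.858 and 0.556 times. Of the 13 mitochondrial-genome genes themselves, 12 were above the control in both clones, as given above.

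The 10 regulators of mitochondrial biogenesis had median log2 ratios of 0.01 (clone 41) and -0.10 (clone 47). Of these, 1 was above the control in both clones (10%) and 1 below in both (10%), beside 25.9% of all genes either way. The clone 41 median changed sign with the processing, and was -0.07 with total-count scaling, where the median of all genes was -0.08. The gene above in both was ESRRG, a nuclear receptor, at 1.02 and 1.18 times. The gene below in both was YY1, a zinc finger factor, at 0.992 and 0.697 times. The 15 genes of carriers, porins and inner membrane organisation had median log2 ratios of 0.08 and 0.31. Of these, 5 were above in both clones (33.3%) and 1 below in both (6.67%). VDAC2, an outer membrane porin, was at 1.33 times in both clones. IMMT, a core protein of cristae junctions, was at 0.873 and 0.850 times. For others the clones lay on either side of the control, such as SLC25A6 at 1.34 and 0.681 times and CHCHD6 at 0.749 and 1.79 times. The 9 antioxidant and uncoupling genes had median log2 ratios of 0.12 and 0.43, with 6 above in both clones (66.7%) and 0 below in both. Among those above were GPX1 at 1.20 and 1.31 times and TXN2, mitochondrial thioredoxin, at 1.10 and 1.38 times.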

How the data were processed

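The data are RNA levels in 2 knock-in clones and 1 control of chicken DT40-ASF cells, 1 library each. Per the labels' protocols, mRNA was enriched and strand-specific, paired-end libraries were made with PCR. The submitters' processing notes name build galGal4, Cufflinks 2.2.1, Cuffdiff, Bowtie, TopHat and TopHat2. Of the counting tool, annotation and strand setting, nothing is stated in the labels or headers. The deposited values are whole read counts per gene (11877 genes) and FPKM (11929 genes), described on the deposited cover sheet as a normalised read count. No sequences are shown, since the sources used here pair none with these genes.

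Groups came from the genotype label. Counts were filtered with filterByExpr (minimum count 10, minimum total 15), scaled by TMM, and tested with edgeR 4.0.16 (quasi-likelihood F test, newer estimator, all 10203 genes, Benjamini-Hochberg, threshold 0.05), after the script was tested on simulated data. The simulated clones shared the same means, so that run checked the script and not the power of the test in these data. SE came from the F statistic. Ratios are of TMM-scaled CPM with exact conditional binomial 95% intervals; log2 values use a prior count of 2. DESeq2 1.42.0, limma 3.58.1, other scalings, filters and log2(FPKM + 1) were alternatives. Members and lists were chosen with earlier results of these data known. Named genes are all mitochondrial ones, the extremes per complex and clone, genes past 1.5-fold in both clones or 2-fold in 1, the highest in FPKM, and up to 2 per further list (1 gene this rule names is not reported here); other members are named after their values were seen. List symbols were matched directly or through synonyms in the RefSeq gene table of GRCg7b. No erythroid marker was counted. With 1 library per clone and 1 control, the only residual spread in the fit is that between the clones. The error also borrows dispersion from other genes, so the p-values do not measure the spread of repeated cultures.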

Additional observations from a re-analysis of the deposited data

How the results depend on the processing

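No respiratory chain gene was called under any of the alternatives run. Over all genes, where the count was 0, it was 2 with DESeq2, with the legacy estimator and with a mean count of at least 100, 1 with limma-voom and with scaling that left out the mitochondrial genes, and 12 and 10 on FPKM with pseudocounts of 1 and 0.1. The medians of the mitochondrial-genome genes, the nuclear genes and each complex stayed above 0 in both clones under each alternative of scaling, filter, prior count and unit. That of the biogenesis regulators in clone 41, 0.01, ranged from -0.067 to 0.025. With total-count scaling the clone 41 medians were 0.057 for nuclear genes, 0.11 for complex III, 0.14 for complex IV and 0.055 for complex V. In clone 47 they were 0.25 for complex III, 0.20 for complex IV and 0.11 for complex V. On FPKM with pseudocounts of 1 and 0.1, complex III was at 0.14 and 0.14 in clone 41 and 0.21 and 0.21 in clone 47, and complex IV was at 0.16 and 0.16 in clone 41. Complex III was at 0.20 in clone 41 with RLE factors, and at 0.18 in clone 41 and 0.21 in clone 47 with a mean count of at least 100. The median of all genes shifted under total-count scaling by -0.08 in clone 41 and 0.06 in clone 47. Of the members, the number 2-fold or more off the control in clone 47 was 2 with total-count scaling and 2 with either FPKM setting, against 1 as reported. The share of summed FPKM was 12.6% in clone 41, 12.6% in clone 47 and 10.5% in the control for the mitochondrial genome, and 1.47%, 1.67% and 1.42% for nuclear genes. Without COX1 and ATP5B the mitochondrial to nuclear ratio was 4.11, 3.71 and 3.54. Total-count scaling leaves out the TMM factors, 0.953 in clone 41, 1.04 in clone 47 and 1.00 in the control, so it moves all genes of a clone nearly alike. The cause of the other shifts was not tested. Leaving out 1 clone makes the fitted median that of the other clone. It was then 0.13 to 0.22 for nuclear genes (0.16 with both clones) and 0.15 to 0.28 for complex I (0.15 with both). For complex II it was 0.12 to 0.51 (0.37 with both). For complexes III, IV and V it was 0.19 to 0.19, 0.15 to 0.22 and 0.056 to 0.13. With both clones the medians of complexes III, IV and V were 0.30, 0.27 and 0.16, each above either single-clone value. The limit is 1 library per clone and 1 control, since counting intervals are narrow. No paired analysis was possible because the labels give no replicate numbers and there is 1 control.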

Other observations

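The deposited measures were compared gene by gene. The log2 ratio to the control had the same sign by counts and by FPKM for 63 of 73 genes in clone 41 and 71 of 73 in clone 47. The difference between the measures was within 0.2 of its median for 72 genes in clone 41 and 69 in clone 47. Outside this were ATP5G1 in both clones and, for clone 47, NDUFV3, NDUFAF5 and SDHAF3; these were picked out by their values. NDUFV3, a small complex I subunit, was at 1.13 times the control by counts and 1.42 times by FPKM in clone 47. NDUFAF5 was at 0.802 times by counts and 0.676 times by FPKM, and SDHAF3 at 1.31 and 1.14 times, in the same clone. The cause was not tested.

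Outside the respiratory chain proper, mitochondrial genes with larger differences in 1 clone were met in the lists, also named after their values were seen. SSBP1, which coats single-stranded mitochondrial DNA, had 6508 counts in clone 41 and 2162 in clone 47, against 5584 in the control, or 1.30 and 0.400 times. TXNRD2, mitochondrial thioredoxin reductase, had 2654 counts in clone 41 and 6090 in clone 47, against 2751 in the control, or 1.08 and 2.29 times. SLC25A3, the phosphate carrier that supplies ATP synthase, stood at 1.32 (clone 41) and 0.502 times the control (clone 47), and PPARGC1A, a coactivator of mitochondrial biogenesis, had 60 counts in clone 41 and 189 in clone 47, against 153 in the control, its larger difference being in clone 41 (0.437 times) and not in clone 47 (1.28 times). None of these passed edgeR's quasi-likelihood test (adjusted p = 1 for each).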
